A study of Mus musculus with 69 samples.

Results

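Matrix metalloproteinases (MMPs), the ADAM and ADAMTS proteases and the tissue inhibitors of metalloproteinases (TIMPs) were followed in whole kidney RNA of NZB/W F1 mice, a hybrid strain that develops lupus nephritis. The members were the gene symbols of the 4 families that carry a number after the family name and had at least 100 counts in total over the 65 mice. This rule took 59 of the 79 matching symbols: 18 of 23 MMP, 20 of 33 ADAM, 17 of 19 ADAMTS and 4 of 4 TIMP genes. Just inside the limit were Adam3 with 165 counts and Mmp27 with 183, and just outside were Adam2 with 94 and Mmp8 and Adam6b with 60 each. The 20 symbols under the limit were not described further.

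The young group held 30 mice aged 12 weeks without treatment, and the nephritic group 27 mice aged 30 to 45 weeks, in which proteinuria had reached 300 mg/dl while blood urea nitrogen was still under 25 mg/dl. Perfused kidneys were taken at ZT0, 4, 8, 12, 16 and 20, where ZT0 is lights on, from 7, 4, 4, 7, 4 and 4 young mice and from 7, 4, 4, 6, 3 and 3 nephritic mice. The remission group held 8 mice of the same strain, treated from age 36 to 50 weeks, when proteinuria first passed 300 mg/dl, with 50 mg/kg cyclophosphamide and 6 doses of 200 ug CTLA4Ig and 250 ug anti-CD40L, and taken 8 weeks later with proteinuria of at most 30 mg/dl, 4 at ZT0 and 4 at ZT12. Young and nephritic mice differ in age as well as in disease, and these cannot be told apart here. The remission libraries were treated here as another sequencing run than the rest, together with repeat libraries of 4 mice that were taken to bridge the runs.

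MMPs are zinc enzymes that cut collagens, other matrix proteins and many signalling proteins outside the cell. Most ADAMs are membrane proteins, and the active ones shed the outer parts of other membrane proteins, such as TNF and growth factors. ADAMTS enzymes are secreted and cut proteoglycans, procollagens or von Willebrand factor. TIMPs bind the active sites of these enzymes and hold them in check, and Timp1 and Mmp2 are commonly followed in scarring kidneys.

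Total counts ranged from 25257530 to 35744843 in young, from 26596500 to 48075977 in nephritic and from 13311278 to 21849912 in remission libraries, and no 2 libraries were identical. Values are CPM, a gene's count over the scaled library total, the scale used throughout. Kidney markers were present in every library, with Umod at 1028 CPM or more. In whole tissue, fewer cells of a type and less RNA per cell cannot be told apart. Of the 65 mice, 8 young and 1 nephritic had over 100 counts of Cyp11b1, an enzyme of the adrenal cortex, against at most 46 in the others. Results of members that depend on these mice are given with and without them. The remission mouse s9 carries the label ZT12, but its Arntl level of 27.01 CPM lay with the ZT0 mice (23.05 to 28.8 CPM) and not with the other ZT12 mice (3.19 to 4.89 CPM). The repeat library of mouse RX11RU was closer to the library of another mouse, RX11LU (r = 0.991 across genes), than to its own original (r = 0.978).

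There are 6 members in 1 cluster of MMP genes on chromosome 9 of the mouse genome build GRCm38, all on the plus strand: Mmp13 at chr9:7272514-7283333, Mmp12 at chr9:7344397-7360461, Mmp3 at chr9:7445822-7455975, Mmp10 at chr9:7502342-7510242, Mmp27 at chr9:7571396-7581885 and Mmp7 at chr9:7692090-7699585. The 3 MMP genes with the largest rise between young and nephritic mice and the only MMP gene that fell lie in this cluster, which is why its promoters are shown. RefSeq (GRCm38.p6) promoter windows, 250 bases before to 50 after a start site, were found for 36 of the 59 members. The 150 bases before the start of the 5 that hold the AP-1 motif TGAGTCA, or its reverse complement TGACTCA, are printed 5′ to 3′ on the plus strand with the motif in capitals. The windows are Mmp13 chr9:7272364-7272513, Mmp12 chr9:7347224-7347373, Mmp3 chr9:7445672-7445821, Mmp10 chr9:7502192-7502341 and Mmp7 chr9:7691940-7692089, and that of Mmp12 precedes a start inside the gene.
Mmp13: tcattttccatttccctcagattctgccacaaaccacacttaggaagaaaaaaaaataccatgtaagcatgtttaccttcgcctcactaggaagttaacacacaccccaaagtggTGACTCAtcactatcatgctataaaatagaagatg
Mmp12: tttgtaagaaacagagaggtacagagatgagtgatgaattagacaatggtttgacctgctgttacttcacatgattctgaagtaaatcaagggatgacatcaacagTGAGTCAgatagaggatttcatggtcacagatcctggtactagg
Mmp3: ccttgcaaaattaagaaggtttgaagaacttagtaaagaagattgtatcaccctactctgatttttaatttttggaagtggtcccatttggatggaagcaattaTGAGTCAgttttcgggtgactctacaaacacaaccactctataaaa
Mmp10: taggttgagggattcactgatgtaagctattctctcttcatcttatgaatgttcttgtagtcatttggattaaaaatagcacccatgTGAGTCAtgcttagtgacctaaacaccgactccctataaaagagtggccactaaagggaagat
Mmp7: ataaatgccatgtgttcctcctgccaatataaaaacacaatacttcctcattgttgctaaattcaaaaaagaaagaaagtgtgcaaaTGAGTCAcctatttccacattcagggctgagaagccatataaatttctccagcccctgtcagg

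Counted from the start site, the motif begins at -35 in Mmp13, -44 in Mmp12, -46 in Mmp3 and -63 in both Mmp10 and Mmp7, and the window of Mmp27 does not hold it. Among the 36 members with a window, 7 held the motif on either strand (19.4%), against 5.95% of 27025 genes, and the other 2 were Adam19 and Adam1b. The E-box CACGTG, which reads the same on both strands, was in the windows of 4 of the 36 members (11.1%), namely Adamts17, Mmp7, Adam10 and Adam19, against 8.09% of all genes. Of the 7 members with the AP-1 motif, Mmp13 fell in nephritic mice, Adam1b did not pass and the other 5 rose, where 28.1% of all genes did. Of these 5, Mmp3, Mmp7 and Mmp10 reached the limit of counts through the nephritic mice. The cluster was chosen for its changes, so this count is not read as a result. The part of the motif was not tested. The table held no entry for Adam3, Adam4, Adam5, Adam7, Adam9, Adam11, Adam12, Adam28, Adam32, Adam33, Adamts4, Adamts5, Adamts6, Adamts7, Adamts8, Adamts10, Adamts15, Adamts16, Mmp2, Mmp9, Mmp16, Mmp17 and Mmp19.

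Per kilobase of annotated exon, Timp3 was the highest member in every group, with a median of 322.5 CPM per kb in young, 246.0 in nephritic and 210.0 in remission mice. Timp3 is a matrix-bound inhibitor that acts on ADAM and ADAMTS enzymes as well as on MMPs. In young mice Adam9 (23.7 CPM per kb), Adam10 (20.7) and Timp2 (18.2) followed, and the ranges of these 3 overlapped. In nephritic mice Timp2 followed Timp3 with 26.9 CPM per kb, and Adamts1 came next with 22.3. Timp1 stood 32nd among the 59 members in young mice at 0.269 CPM per kb and 7th in nephritic mice at 8.43 CPM per kb, and Timp4 stood 45th and 48th. The proteases with the largest changes stayed low, since Mmp3, Mmp7 and Mmp10 had medians of 0.485, 0.436 and 0.100 CPM per kb in nephritic mice.

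The level in nephritic against young mice was tested over the 6 time points with edgeR's quasi-likelihood test, with time point and sequencing set as covariates and Benjamini-Hochberg adjustment over 17521 genes. Of the 59 members 34 were higher, where 28.1% of all genes passed in that direction, and 9 were lower, where 33.9% of all genes did. Their median log2 change was 0.37, against -0.03 over all genes. The members Mmp3, Mmp7, Mmp10, Mmp24 and Mmp27 had under 100 counts in the young mice together and so reached the limit through the nephritic mice. Among the 53 members with at least 100 counts in each group, 29 were higher and 9 lower, with a median of 0.36. No member had groups that were fully apart, whereas 155 of 17587 genes (0.881%) did.

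**Figure D1:**
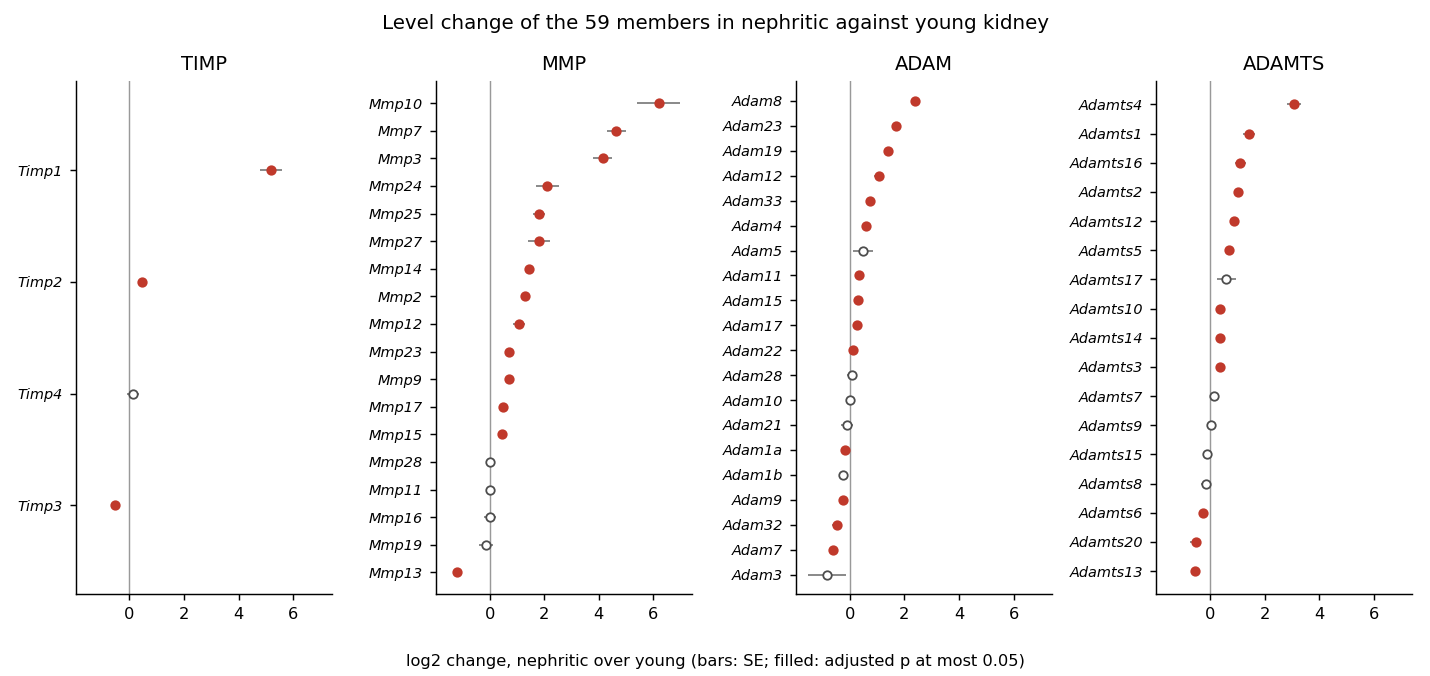
Log2 change of each of the 59 members in nephritic over young mice, by family, with bars for the SE and filled points for an adjusted p of at most 0.05. Timp1, Mmp10, Mmp7, Mmp3 and Adamts4 stand furthest to the right, Mmp13 stands furthest left of those that passed, and the fitted value of Mmp10 depends on the prior count since no young mouse had a count.

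The 4 inhibitors went different ways. Timp1, at chrX:20870166-20874737 within the gene Syn1 on the opposite strand but sharing no exon bases with it, ranged from 0.0695 to 0.720 CPM (median 0.239) in young mice and from 0.656 to 49.6 CPM (median 7.48) in nephritic mice. Thus 26 of 27 nephritic mice lay above the highest young mouse, and the nephritic mice spread far more widely. The log2 change of Timp1 was 5.19 (SE 0.41, adjusted p = 6.1e-16). Timp2, a widely made inhibitor that also takes part in the activation of pro-MMP2, rose from a median of 71.0 to 105 CPM (log2 change 0.45, SE 0.07, adjusted p = 4.6e-08), and 15 of 27 nephritic mice exceeded the young range.

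Timp3, by far the most abundant, fell from a median of 2626 to 2003 CPM (log2 change -0.53, SE 0.09, adjusted p = 2.2e-06). Only 10 of 27 nephritic mice lay below the lowest young mouse at 1846 CPM, and the nephritic values reached down to 786 CPM. The annotated exons of Timp3 share 21.3% of their length with exons of Syn3 on the opposite strand, and reads of the pair cannot be separated without knowing whether strand was counted. Timp4 ranged from 0.0661 to 1.98 CPM in young and from 0.0854 to 1.57 CPM in nephritic mice, with a log2 change of 0.13 (SE 0.22, adjusted p = 0.62).

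The stromelysins, matrilysin and elastase of the chromosome 9 cluster rose while the collagenase beside them fell. Mmp10 (stromelysin 2) had 0 counts in every young mouse and 276 counts in nephritic mice, present in 22 of 27. Against the limit of 3 counts over the young group, Mmp10 was at least 91.8-fold higher in nephritic mice when counts were pooled per group. Mmp3 (stromelysin 1) ranged from 0 to 0.230 CPM (median 0.0472) in young and from 0.0984 to 9.99 CPM (median 0.873) in nephritic mice, of which 24 lay above the young range (log2 change 4.14, SE 0.34, adjusted p = 3.8e-15). Mmp7 (matrilysin), an enzyme of injured epithelium, had a count in 11 of 30 young and 26 of 27 nephritic mice, with medians of 0 and 0.466 CPM (log2 change 4.65, SE 0.36, adjusted p = 4.7e-16).

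Mmp12, the macrophage elastase, rose from a median of 0.852 to 1.59 CPM (log2 change 1.09, SE 0.22, adjusted p = 2.8e-05), with 1 nephritic mouse below and 15 above the young range. Mmp27 changed by 1.80 (SE 0.39, adjusted p = 8.1e-05) from low levels of at most 0.203 CPM in young and 0.501 CPM in nephritic mice. Mmp13 (collagenase 3), which cuts fibrillar collagen, went the other way, from 1.26 to 3.13 CPM (median 1.96) in young to 0.152 to 1.62 CPM (median 0.828) in nephritic mice. Its log2 change was -1.21 (SE 0.14, adjusted p = 8.6e-11), and 21 of 27 nephritic mice lay below the lowest young mouse.

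**Figure D2:**
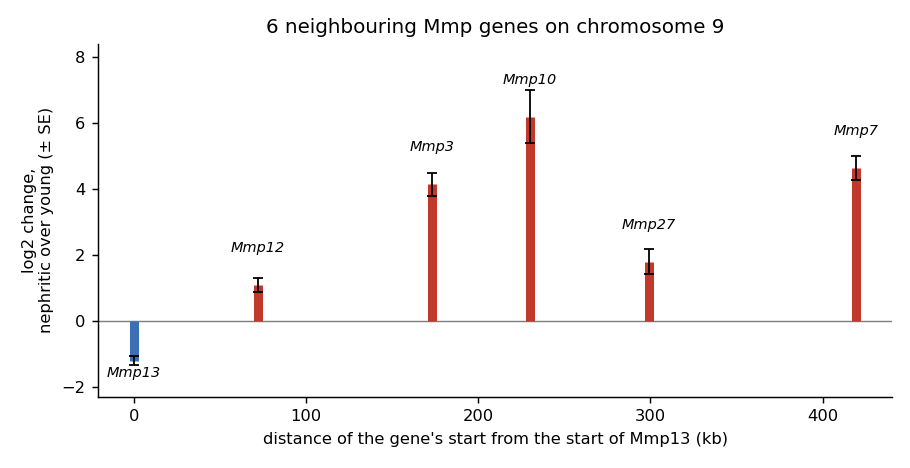
Log2 change in nephritic over young mice, with SE, of the 6 members of the chromosome 9 cluster, placed by the distance of each gene's start from that of Mmp13 in kb. Mmp13 at -1.21 is the only one below 0, and Mmp12 at 1.09 stands beside it.

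Both gelatinases, which degrade denatured collagen and basement membrane, rose. Mmp2 ranged from 2.89 to 8.61 CPM (median 5.69) in young and from 5.07 to 33.6 CPM (median 12.8) in nephritic mice, with 20 of 27 above the young range (log2 change 1.31, SE 0.16, adjusted p = 4.9e-10). Mmp9 changed by 0.70 (SE 0.15, adjusted p = 5.5e-05). Of the 6 membrane-type MMPs, 5 rose, where 28.1% of all genes did, and Mmp16 had a change of 0.01. Mmp14, the membrane enzyme that activates pro-MMP2, went from a median of 15.4 to 42.7 CPM (log2 change 1.45, SE 0.15, adjusted p = 5.3e-12), and 21 nephritic mice exceeded the highest young value of 21.5 CPM. Mmp25 (leukolysin), known from neutrophils, changed by 1.82 (SE 0.22, adjusted p = 7.0e-10) and Mmp24 by 2.12 (SE 0.42, adjusted p = 2.0e-05), and neither exceeded 1.10 CPM in any mouse. Of the neutrophil markers 1 of 6 rose and 0 fell, where 28.1% and 33.9% of all genes did. Their summed level ran from 0.563 to 23.05 CPM (median 1.17) in young mice. In nephritic mice it ran from 1.99 to 18.3 CPM (median 5.66). The part of neutrophils in the change of Mmp25 was not tested.

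**Figure D3:**
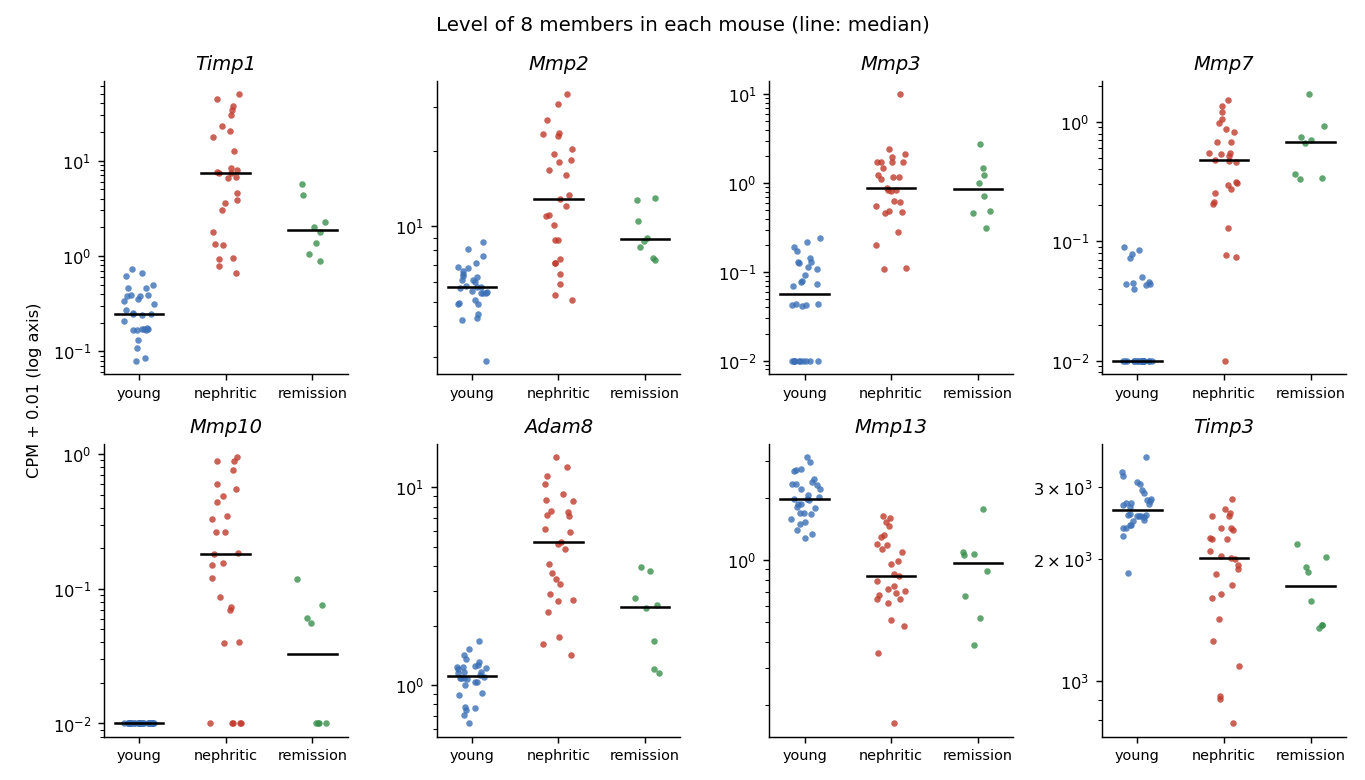
CPM plus 0.01 on a log axis for 8 members in each young, nephritic and remission mouse, with a line at the median. Timp1, Mmp3, Mmp7 and Adam8 are higher in most nephritic mice, Mmp13 and Timp3 are lower, Mmp10 has no count in any young mouse, and Mmp3 and Mmp7 lie above the young range in all 8 remission mice.

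Of the 20 ADAM genes 10 rose and 4 fell, where 28.1% and 33.9% of all genes did. Adam8, a protease of leukocytes and activated cells, ranged from 0.628 to 1.65 CPM in young and from 1.41 to 14.2 CPM in nephritic mice, with 25 of 27 above the young range (log2 change 2.40, SE 0.17, adjusted p = 3.0e-17). Adam23, a member without protease activity, changed by 1.70 (SE 0.16, adjusted p = 5.8e-13), Adam19 by 1.41 (SE 0.14) and Adam12 by 1.05 (SE 0.15). The main sheddases moved little, since Adam17, which releases TNF, changed by 0.27 (SE 0.04, adjusted p = 6.5e-08) and Adam10, which cuts Notch, by 0.01 (SE 0.05, adjusted p = 0.85). Adam7 fell by 0.62 on the log2 scale (SE 0.16, adjusted p = 0.00089), and Adam32 (-0.48), Adam9 (-0.24) and Adam1a (-0.19) also fell. Of the exon length of Adam1a 63.7% lies in exons of Gm42878 and 24% in exons of Mapkapk5, both on the same strand, so its reads are uncertain.

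Among the 17 ADAMTS genes 9 rose and 3 fell, where 28.1% and 33.9% of all genes did. Adamts4, an aggrecanase, ranged from 0.161 to 1.41 CPM in young and from 0.853 to 18.7 CPM in nephritic mice, 21 of which lay above the young range (log2 change 3.07, SE 0.25, adjusted p = 1.7e-15). Adamts1, which cuts versican, was the most abundant of them, with a median of 46.0 CPM in young and 118 CPM in nephritic mice (log2 change 1.42, SE 0.22, adjusted p = 2.0e-07). The 3 procollagen N-proteinases all rose, Adamts2 by 1.04, Adamts14 by 0.36 and Adamts3 by 0.36. Those that fell were Adamts13, which cuts von Willebrand factor (-0.53, SE 0.17, adjusted p = 0.0052), Adamts20 (-0.52, SE 0.19, adjusted p = 0.016) and Adamts6 (-0.26). Without the 9 mice with adrenal transcripts, a choice made after seeing the data, 33 members were higher and 5 lower, where 28.8% and 28.9% of all genes were. In that fit Adamts13, Adamts20, Adam32 and Adam1a were no longer among the lower members, nor Adam22 among the higher.

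Of 57 activators, receptors and substrates of these enzymes 55 were tested. Of these 34 rose and 10 fell, where 28.1% and 33.9% of all genes did. Among the large changes were those of Areg, a growth factor released by Adam17 (3.77), Tspan10 (3.32), Cd44, a docking site of Mmp9 (3.07), Tnf (3.03) and Tnfrsf1b (2.21). Areg had 18 and Tspan10 28 counts over the young mice together, so both reached the limit of counts through the nephritic mice. The size of these 2 changes depends on young levels near the floor. Furin, which activates membrane-type MMPs and ADAMs, had a change of -0.21 (SE 0.04, adjusted p = 4.2e-05), and Reck, a membrane inhibitor of MMPs, one of -0.26 (SE 0.09, adjusted p = 0.0065).

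Markers of cell types were tested in the same fit, where 28.1% of all genes rose and 33.9% fell. All 4 injured tubule markers rose, with a summed level of 34.1 to 145 CPM in young and 43.3 to 1764 CPM in nephritic mice, as did 6 of 6 macrophage (106 to 235 against 265 to 1631 CPM), 5 of 5 T cell, 5 of 5 B and plasma cell and 4 of 7 fibroblast markers (111 to 286 against 137 to 1192 CPM). All 5 proximal tubule markers fell. The part of all these cells in the changes of the members was not tested.

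Across the 27 nephritic mice, log2 CPM of Timp1 was set against 5 genes chosen with earlier results known. Pearson's r was 0.908 with Mmp2, 0.937 with Mmp14, 0.955 with Lcn2 and 0.893 with Havcr1, both markers of injured tubules, and 0.925 with Col1a1, a fibrillar collagen. Spearman's rho ran from 0.888 to 0.949, and each permutation p, adjusted over the 5 relations, was 1e-05, the smallest that 100000 permutations can give. Without RX7LU and RX90, the 2 mice farthest from the Timp1 median, r ran from 0.883 to 0.951, and within the 22 mice of sequencing Set 2 from 0.877 to 0.955. Set 1 held 5 nephritic mice, too few for a value of its own.

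Whether members vary over the day was tested within each group over the 6 time points. In young mice 17 of 54 members passed, where 39.8% of 16521 genes did. In nephritic mice 7 of 58 passed, where 21.6% of 16872 genes did, and 2 members, Timp4 and Adam23, passed in both groups. Neither Timp1 (adjusted p = 0.99 for young, 0.79 for nephritic mice) nor Mmp2 (0.97 and 0.79) passed. Amplitudes come from a 24 h cosine on log2 CPM. Without the mice with adrenal transcripts 11 members passed in young mice, where 24.4% of all genes did, and 8 in nephritic mice, where 25.7% did. That choice left out 8 young mice and 1 nephritic mouse, among them ZT16RU, ZT16LL and ZT160 of the 4 young mice at ZT16. The young test thus lost more power than the nephritic one, and these shares cannot show whether the groups differ. With 24 h cosine and sine terms in place of time points 1 member passed in nephritic mice, where 2.15% of all genes did, and with DESeq2 16 did, where 33.5% of all genes did.

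Adamts4 had the smallest p in young mice (adjusted p = 5.3e-05), with 0.914 ± 0.25 CPM (SD, n = 7) at ZT0 against 0.325 ± 0.12 CPM (SD, n = 4) at ZT16. Its lowest value at ZT0, 0.652 CPM, lay above the highest at ZT12, 0.491 CPM. For Adamts4 the young amplitude was 0.76 (SE 0.10). The nephritic one was 0.43 (SE 0.31), and the test there was not passed (adjusted p = 0.32). Mmp15, a membrane-type MMP, was highest in young mice at ZT0 with 8.91 ± 1.5 CPM (SD, n = 7) and lowest at ZT12 with 3.55 ± 0.42 CPM (SD, n = 7), and the ranges at those times, 6.66 to 10.9 and 2.82 to 4.22 CPM, did not overlap (adjusted p = 6.6e-05, amplitude 0.63, SE 0.09). In nephritic mice Mmp15 was 10.2 ± 1.8 CPM (SD, n = 7) at ZT0 and 9.01 ± 2.4 CPM (SD, n = 6) at ZT12.

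Adamts1 in young mice was at a mean of 26.5 CPM at ZT4 and 26.6 CPM at ZT8 and between 45.9 and 63.1 CPM at the other times, with an adjusted p of 0.0041 and an amplitude of 0.48 (SE 0.11). In nephritic mice its values at ZT0 alone ran from 22.1 to 513 CPM, and it did not pass (adjusted p = 0.19). Adam17 passed in young mice with a small amplitude of 0.13 (SE 0.02, adjusted p = 0.0012), Adamts16 with 0.21 (SE 0.09, adjusted p = 0.0058) and Adamts7 with 0.24 (SE 0.07, adjusted p = 0.010).

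**Figure D4:**
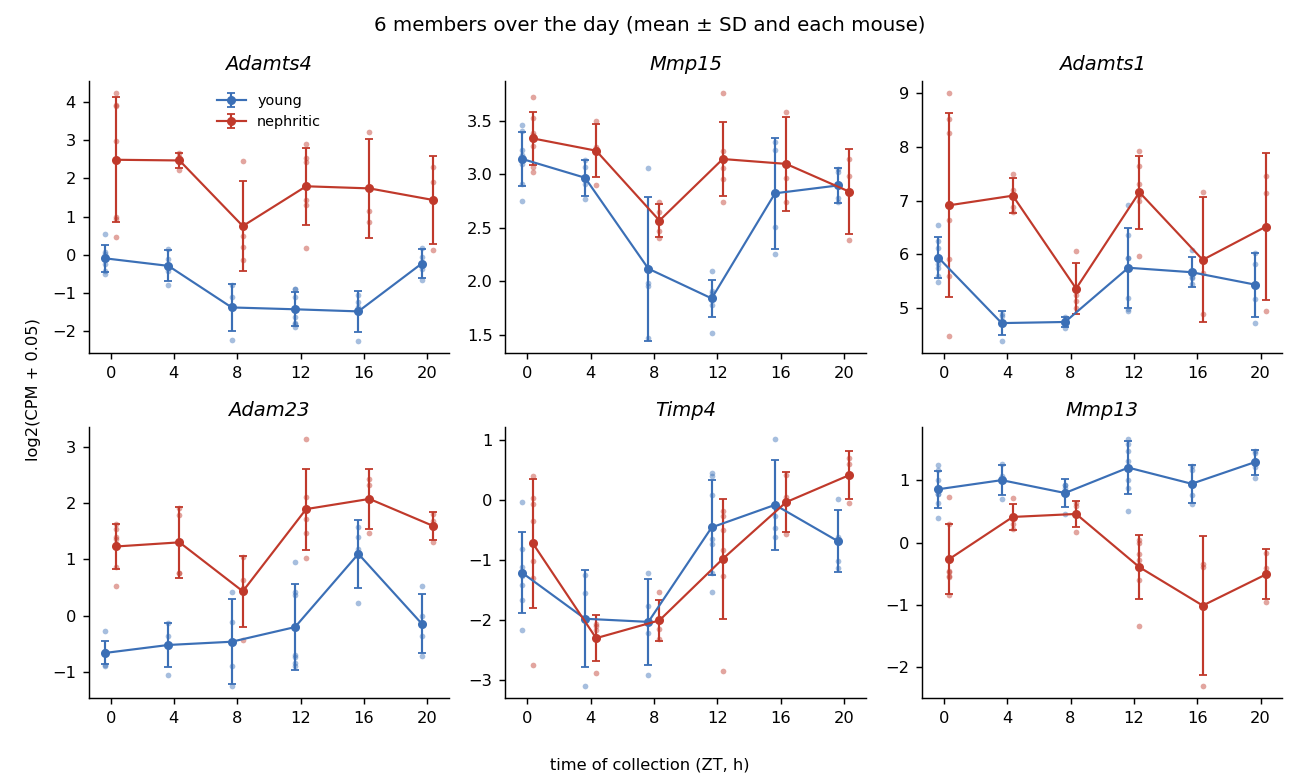
Log2(CPM + 0.05) of 6 members at each time point in young and nephritic mice, with each mouse as a point and the mean with its SD. Adamts4 and Mmp15 fall from ZT0 to ZT12 in young mice, Timp4 and Adam23 are higher at ZT16 than at ZT4 in both groups, and Mmp13 in nephritic mice is highest at ZT4 and ZT8.

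Timp4 had its lowest means at ZT4 and ZT8 in both groups. In young mice it was 0.231 ± 0.13 CPM (SD, n = 4) at ZT4 and 1.01 ± 0.65 CPM (SD, n = 4) at ZT16 (adjusted p = 0.00065, amplitude 0.96, SE 0.19). In nephritic mice it was 0.157 ± 0.048 CPM (SD, n = 4) at ZT4 and 1.32 ± 0.35 CPM (SD, n = 3) at ZT20 (adjusted p = 0.0036, amplitude 1.30, SE 0.21). Fat cell markers moved alongside, with a median summed level of 192 CPM at ZT4 and 421 CPM at ZT16 in young mice, and of 124 CPM at ZT4 and 657 CPM at ZT16 in nephritic mice. Adrenal markers in young mice were at a median of 533 CPM at ZT16 and between 5.67 and 7.79 CPM at the other times. Without the mice with adrenal transcripts Timp4 did not pass in young mice (adjusted p = 0.084) and passed in nephritic mice (adjusted p = 0.0025). That young fit lacks most of the mice at ZT16 and could hardly detect a rise there. The part of the fat cell and adrenal markers in the result was not tested.

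Adam23 was highest at ZT16 in young mice, with 2.22 ± 0.78 CPM (SD, n = 4) against 0.589 ± 0.094 CPM (SD, n = 7) at ZT0 (adjusted p = 0.0025), and was also highest at ZT16 in nephritic mice with 4.34 ± 1.4 CPM (SD, n = 3, adjusted p = 0.035). Without the mice with adrenal transcripts Adam23 did not pass in young mice (adjusted p = 0.46). That fit lacks ZT16RU, ZT16LL and ZT160 of the 4 young mice at ZT16, where Adam23 was highest, and could hardly detect a rise there. The log2 change of Adam23 in nephritic against young mice was 1.70 with the mice with adrenal transcripts and 1.98 (SE 0.18) without them. The part of adrenal tissue in the course of Adam23 was not tested. Of the others that passed in nephritic mice, Adamts15 was highest at ZT4 with 13.7 ± 1.5 CPM (SD, n = 4) and lowest at ZT8 with 7.45 ± 1.9 CPM (SD, n = 4, adjusted p = 0.017). Mmp17 was highest at ZT12 with 4.36 ± 0.65 CPM (SD, n = 6, adjusted p = 0.026), and Adam4 likewise with 1.34 ± 0.39 CPM (SD, n = 6, adjusted p = 0.040). Adamts9 and Adamts8 had adjusted p values of 0.045 and 0.047. None of these 5 passed the test of a different course described next, and the young mean of Adamts15 was also lowest at ZT8.

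The terms for group by time tested whether the course over the day differed between nephritic and young mice, and 4 of 59 members passed, where 6.27% of all genes did. Mmp15 (adjusted p = 0.014) had its lowest mean at ZT12 in young mice and at ZT8 in nephritic mice, with 5.91 ± 0.64 CPM (SD, n = 4). Without nephritic replicate 4, a ZT12 mouse, no member passed. Mmp13 (adjusted p = 0.049) was highest in nephritic mice at ZT8 with 1.34 ± 0.19 CPM (SD, n = 4) and lowest at ZT16 with 0.536 ± 0.33 CPM (SD, n = 3), while its young means stayed between 1.70 and 2.42 CPM. Adam5 and Adam3, neighbours at chr8:24727093-24824369 and chr8:24677232-24726377 known from sperm, had adjusted p values of 0.041 and 0.043. Their young counts came mostly from 2 mice, with 58 and 39 of 173 Adam5 counts and 52 and 47 of 101 Adam3 counts, at ZT8 and ZT4. The other 28 young mice had at most 9 and 1 counts, and without the ZT4 mouse Adam5 had an adjusted p of 0.059 and Adam3 fell under the limit of counts.

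**Figure D5:**
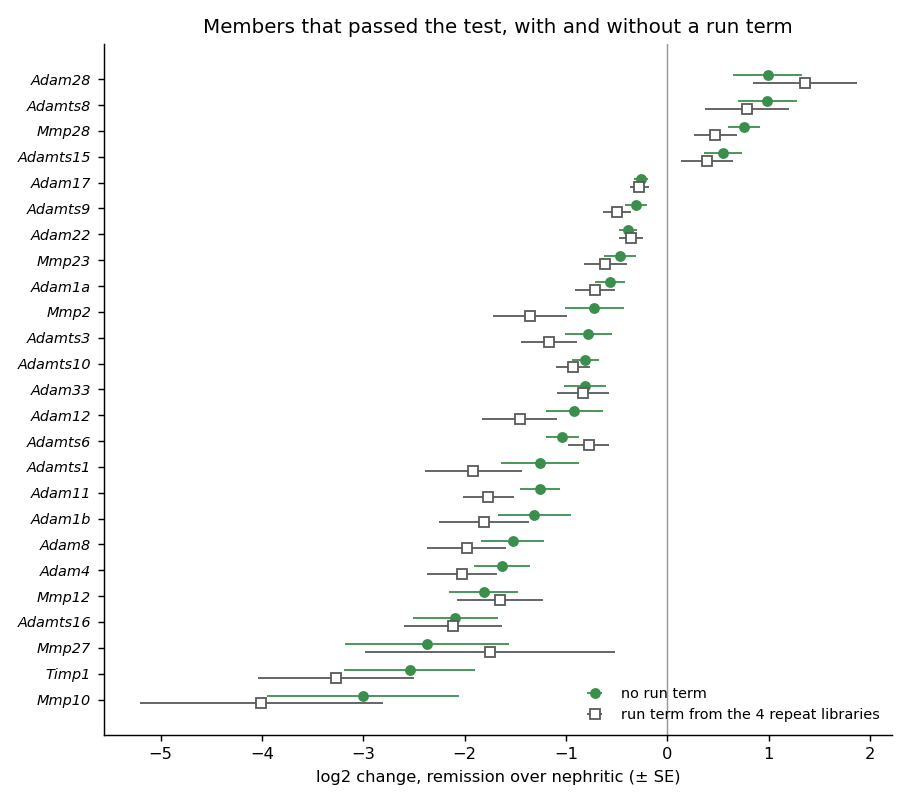
Log2 change in remission over nephritic mice, with SE, of the 25 members that passed, fitted without a run term (filled circles) and with a run term from the 4 repeat libraries (open squares). Mmp10, Timp1 and Mmp27 lie furthest left, and each member keeps its direction under the run term.

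Remission was compared with the nephritic and the young mice of ZT0 and ZT12. Against nephritic mice 21 of 58 members were lower, where 20.5% of 16841 genes were, and 4 were higher, where 17% were. The median log2 change of the members was -0.33, against -0.02 over all genes. Run and group cannot be told apart without the repeat libraries. With a run term from the 4 repeat libraries 25 members were lower and 0 higher, where 14.2% and 9.37% of all genes were. Without the repeat of RX11RU 21 members were lower and 0 higher, where 13.2% and 8.07% of all genes were. Among those with a higher fitted level, Adam28 and Mmp28 had an unadjusted edgeR p under 0.05 in both fits, and Adamts8 in the latter. Without s9 the counts were again 21 and 4, but Mmp2 was no longer among the lower members and Adamts12 was.

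Timp1 in remission mice ranged from 0.870 to 5.62 CPM (median 1.88), with all 8 below the nephritic median and all 8 above the highest young mouse. Set against nephritic mice its log2 change was -2.55 (SE 0.64, adjusted p = 0.0024; with the run term -3.27, adjusted p = 0.0029) and set against young mice 3.34 (SE 0.67, adjusted p = 0.00018). The latter became 2.72 with the run term (adjusted p = 0.041) and 2.40 without the RX11RU repeat (adjusted p = 0.13). Mmp2 ranged from 7.29 to 12.9 CPM, with a change of -0.72 (SE 0.29, adjusted p = 0.048; with the run term -1.36, adjusted p = 0.0080; without s9 -0.70, adjusted p = 0.072). Adam8 changed by -1.53 (SE 0.31, adjusted p = 0.00029), Mmp12 by -1.82 (SE 0.34, adjusted p = 0.00011), Adamts16 by -2.09 (SE 0.42, adjusted p = 0.00022) and Adamts1 by -1.26 (SE 0.38, adjusted p = 0.010), and all 4 were lower with the run term too. Mmp10 had 5 counts in 4 of 8 remission mice and was lower than in nephritic mice (adjusted p = 0.018).

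Other members went below the young level as well. Adamts6, with 2.96 to 5.73 CPM in remission mice, lay below the lowest young mouse (5.14 CPM) in 7 of 8, with a log2 change of -1.04 (SE 0.16, adjusted p = 7.4e-06) against nephritic and -1.48 (SE 0.16, adjusted p = 1.5e-08) against young mice. Adam11, a member without protease activity, changed by -1.26 (SE 0.20, adjusted p = 8.3e-06) and -0.81 (SE 0.20, adjusted p = 0.0014), and Adamts10 by -0.81 (SE 0.13, adjusted p = 1.5e-05) and -0.33 (SE 0.13, adjusted p = 0.042). Against young mice Adamts10 did not pass with the run term (adjusted p = 0.062) or without s9 (adjusted p = 0.059). Adam4 (-1.63, SE 0.28, adjusted p = 2.9e-05) and Adam22 (-0.39, SE 0.09, adjusted p = 0.00088) were also lower than in nephritic mice. Mmp28 (epilysin) was higher than in nephritic mice at 4.32 to 6.52 CPM, by 0.76 (SE 0.16, adjusted p = 0.00037), and by 0.47 with the run term (adjusted p = 0.10).

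Mmp3 and Mmp7 did not pass the test between remission and nephritic mice and stayed above the young range. Mmp7 ranged from 0.320 to 1.69 CPM, with all 8 mice above the highest young mouse (0.0803 CPM) and a change of 0.57 (SE 0.49, adjusted p = 0.38; with the run term 0.46, and -0.61 without the RX11RU repeat) against nephritic and 5.41 (SE 0.64, adjusted p = 5.3e-08) against young mice. Mmp3 ranged from 0.302 to 2.76 CPM, again with all 8 above the young range, and changed by -0.08 (SE 0.58, adjusted p = 0.93) and 4.18 (SE 0.63, adjusted p = 3.3e-06). With the run term the changes against young mice were 4.37 (adjusted p = 0.0023) for Mmp7 and 3.75 (adjusted p = 0.0057) for Mmp3. Mmp13 stayed low at 0.378 to 1.76 CPM, with a change of 0.26 (SE 0.26, adjusted p = 0.45) against nephritic and -1.08 (SE 0.26, adjusted p = 0.0013) against young mice. Of the same cluster, Mmp27 was lower than in nephritic mice by a change of -2.37 (SE 0.81, adjusted p = 0.020), and did not pass with the run term (-1.75, adjusted p = 0.30).

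Against young mice 20 of 58 members were higher in remission, where 21.2% of all genes were, and 10 were lower, where 20.4% were. These counts changed with the run term, with which 5 were higher and 5 lower, where 6.88% and 6.94% of all genes were. Without the RX11RU repeat 3 were higher and 6 lower, where 4.7% and 5.3% were. Mmp14 at 1.52 (SE 0.28, adjusted p = 4.7e-05) became 0.90 with the run term (adjusted p = 0.13), and Timp3 at -0.77 (SE 0.19, adjusted p = 0.0019) became -0.52 (adjusted p = 0.17). Timp2 changed by 0.50 (SE 0.12, adjusted p = 0.00090) against young and by 0.05 (SE 0.12, adjusted p = 0.76) against nephritic mice. In the same mice all 4 injured tubule markers were lower than in nephritic mice, at 120 to 252 CPM in sum, while 0 of 6 macrophage markers were lower and their sum ran from 293 to 971 CPM. All 4 endothelium markers were higher than in nephritic mice, and 3 of 7 fibroblast and 5 of 5 adrenal markers were lower. Of all genes 17% were higher and 20.5% lower. The markers were fitted without the run term. The summed adrenal level had a median of 5.61 CPM in nephritic and 5.01 CPM in remission mice. It reached 794 CPM in the nephritic group, which held RX10LU with 8610 counts of Cyp11b1. These marker counts were not repeated without RX10LU. The part of these cells was not tested.

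Between ZT0 and ZT12 within remission mice 0 of 43 members tested passed, where 0 of 14451 genes (0%) did with edgeR. An unadjusted edgeR p under 0.05 was seen for 5 members. The share of all genes under that unadjusted limit was not counted, so the 5 are listed and not read as a result. DESeq2 called 0 members and 24 genes. The 5 were Timp2, Timp1, Timp4, Mmp19 and Adamts3, all with the higher fitted level at ZT12, and Timp1 had 0.870 to 2.00 CPM at ZT0 and 1.36 to 5.62 CPM at ZT12 (log2 change 1.28, SE 0.47). With 4 mice at each time, 1 of them against its label, the precision was low. In simulated data 27 of 100 changes of 0.5 and 69 of 100 changes of 1 on the log2 scale were recovered. Every simulated mouse followed its label, so these shares do not cover a mouse such as s9.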

How the data were processed

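RNA of whole kidneys was sequenced, and the authors deposited raw read counts per gene symbol for each library. The submitters' processing notes name HISAT and the genome build mm10, while the study's methods name a Burrows-Wheeler aligner. The strand of counting is not given in the sources used here. The labels gave groups and times, and the sequencing sets were read from the series of sample titles and the study's supplement. Runs were assigned for the fits, with the remission and repeat libraries apart from the rest. Mice are the replicates.

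Counts were scaled by TMM and tested with edgeR 4.0.16 (quasi-likelihood; limma 3.58.1, R 4.3.3), with time point and RNASeq set as covariates, on genes whose counts in the mice compared summed to 100 or more. An adjusted p (Benjamini-Hochberg over all genes) of at most 0.05 passed. Levels per kb use annotated exon length. Cosines of 24 h and correlations used log2 CPM with a prior count of 2.

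Alternatives were DESeq2 1.42.0, its size factors, no filter, no set term, Set 2 alone, a cosine, the repeat libraries, a run term and leaving out each mouse. Leaving out the mice with Cyp11b1 counts was chosen after seeing the data. The members and lists were chosen with earlier results of these data known. Full statistics went to the TIMPs, Mmp2, the 12 largest level changes, and the members with the smallest p over time (8 young, 5 nephritic) or in remission (10), and to 6 partner genes, of which 1 is not reported here. In simulated data of the comparison of nephritic with young mice, on 17477 genes, 72 of 99 changes of 0.5 and 90 of 100 of 1 on the log2 scale were recovered. Intervals between mice cover biological and technical spread together.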

Additional observations from a re-analysis of the deposited data

Results flagged for a closer look

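Dixon's test was run within a group and time point, and for remission mice over both time points together. By this test 10 values stood far from the rest of their group, among 175 groups looked at, and chance alone gives about 1 in 20. The 3 nephritic mice at ZT16 and the 3 at ZT20 were too few for it. Timp4 was 0.0854 CPM in 1 nephritic mouse at ZT4, against 0.173 to 0.188 CPM in the others. Adamts15 was 8.54 CPM in 1 young mouse at ZT4, against 10.8 to 11.2 CPM. Mmp17 was 1.61 CPM in 1 young mouse at ZT12, against 2.44 to 3.03 CPM, and 2.37 CPM in 1 at ZT16, against 2.99 to 3.13 CPM. Mmp13 was 1.33 CPM in 1 young mouse at ZT8, against 1.79 to 1.86 CPM. Adam5 was 0 CPM in 1 young mouse at ZT0, against 0.0663 to 0.133 CPM.

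Adam3 was seen in single young mice whose group was otherwise at 0, with 0.0343 CPM at ZT0, 1.88 CPM at ZT4, 1.97 CPM at ZT8 and 0.0338 CPM at ZT16. The ZT8 mouse is the same in which Mmp13 was low.

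In edgeR's test of the group by time terms, 4 of 59 members passed, where 6.27% of all genes did. They were Mmp15 (adjusted p = 0.0141), Mmp13 (adjusted p = 0.0492), Adam5 (adjusted p = 0.0409) and Adam3 (adjusted p = 0.0425). Without nephritic replicate 4 no member passed. Mmp15 did not pass in Set 2 alone (adjusted p = 0.18) or with 24 h cosine and sine terms (adjusted p = 0.13), and passed with DESeq2 (adjusted p = 0.0016). The young counts of Adam5 and Adam3 came mostly from 2 mice.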

How the results depend on the processing

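Over 6967 alternatives for the changes and p values of members that passed, and for those of others given with values, 6491 kept direction and side of the threshold, 413 lost the call and 63 turned direction. All 10 alternatives of the Timp1 correlations kept theirs. No scaling moved the median of all genes by over 0.1 on the log2 scale.

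Counts of members moved by over 1.5 times as follows. Without the mice with Cyp11b1 counts, 5 were lower in nephritic mice, 11 varied over time in young mice, 2 differed in their course and 2 were higher in remission than in nephritic mice. The shares of all genes there were 28.9%, 24.4%, 4.19% and 12.8%. Over time in nephritic mice 16 passed with DESeq2, 4 without a filter, 1 with a cosine and 3 with the repeat libraries, where 33.5%, 15.3%, 2.15% and 15.4% of all genes did. A different course was found for 2 members without a filter, 2 in Set 2 alone and 1 with the repeat libraries, where 3.47%, 9.89% and 3.96% of all genes passed. With the run term, and with it less the RX11RU repeat, 0 and 0 were higher in remission than in nephritic mice, 5 and 3 were higher and 5 and 6 lower than in young mice. The cause was not tested.

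Leaving out 1 mouse at a time gave 34 to 35 higher and 8 to 9 lower members in nephritic mice, 13 to 20 that varied over time in young and 2 to 8 in nephritic mice, 0 to 5 with a different course, 3 to 5 higher and 19 to 24 lower in remission than in nephritic mice, 16 to 22 higher and 8 to 11 lower than in young mice, and 0 to 0 between ZT0 and ZT12. Over time in nephritic mice, 2 passed without replicate 14, 15 or 17, and 4 without 1, 12, 13, 18, 19, 21 or 27. For a different course, 0 passed without nephritic replicate 4 and 1 or 2 without each of 27 other mice, young replicates 7 and 9 included.

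Among these, direction turned where no call stood, except for Adamts5. In nephritic against young mice Timp4 was -0.13 in Set 2 alone, Mmp16 was -0.063 with the repeat libraries and -0.045 to 0.094 leaving out 1 mouse, and Adam10 -0.00079 to 0.055. In remission against nephritic mice Timp2 was -0.12 and -0.13, and Timp3 0.15 and 0.32, with the run term and with it less RX11RU. Timp4 there was 0.55 and 0.087 in those fits, 0.073 without the set term, 0.40 in Set 2 and 0.34 without the Cyp11b1 mice, and -0.26 to 0.13 leaving out 1 mouse. Mmp7 was -0.61 with the run term less RX11RU, Mmp13 -0.014 with the run term, and Mmp3 0.053 in Set 2, 0.071 without the Cyp11b1 mice and -0.41 to 0.12 leaving out 1 mouse. In remission against young mice Adamts5 was -0.10 and -0.023 in those fits, and Timp4 was -0.21 in Set 2 and -0.11 without remission replicate 2 (range -0.11 to 0.29).

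Remission libraries were the shallowest and hold 8 mice, so smaller changes there are less often detectable.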
